A study of Mus musculus with 2 samples.

Results

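The subunits of voltage-gated sodium and calcium channels were described in dorsal striatum of mice that self-administered cocaine intravenously with long daily access. Members were all symbols in the deposited counts that name a sodium channel alpha or beta subunit, a calcium channel alpha1 subunit from a to i, or an alpha2delta, beta or gamma subunit. This gave 38 genes of 32531 listed, of which 18 encode pores and 20 encode auxiliary subunits. The choice went by gene symbol only, although it was made with earlier results of these data known. All animals carried the Drd1-TRAP transgene of line CP73, an EGFP-tagged ribosomal protein Rpl10a made in cells that express the dopamine receptor Drd1, with FVB/N and Swiss Webster ancestry and a minimum of 9 generations of crossing to C57BL/6. The RNA was the input, meaning RNA of the whole dissected tissue rather than RNA purified on tagged ribosomes. Animals whose intake escalated gave 1 library, and animals without escalation gave the other. The sources used here do not give the number, age or sex of the animals.

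A voltage-gated sodium or calcium channel is built around a single large pore-forming protein that senses membrane voltage and opens to let its ion through. Sodium channels start and carry the action potential. Calcium channels turn that electrical signal into calcium entry, which drives transmitter release, dendritic signalling and gene regulation. Auxiliary subunits do not form the pore. They set how many channels reach the membrane, how fast they open and close, and where they sit. Medium spiny projection neurons, the main neurons of the striatum, fire when sodium and calcium currents overcome a strong resting potassium conductance.

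Each group is a single library, so no difference could be set against replicate spread and none carries a p-value. Counts were scaled with TMM (trimmed mean of M values) and are given as CPM, counts per 1000000 scaled reads. Each ratio of escalating over nonescalating carries an exact 95% Clopper-Pearson interval for counting error, so it describes these libraries rather than the conditions. Calls of higher or lower needed a ratio of 1.5-fold or more and an interval without 1. They were made for genes whose counts summed to 50 or more. By that rule 9.36% of the 12213 measured genes were called higher in the escalating library and 17.1% lower. The libraries held 9548358 (escalating) and 9376097 (nonescalating) reads assigned to genes. Of all reads listed, 28.6% (escalating) and 18.1% (nonescalating) matched no feature used to count genes, and 8.06% and 18.9% matched more than 1 gene. Whether the reads without a feature lay in introns or between genes was not tested.

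The libraries differed in markers of other cells. All 11 astrocyte markers were called lower in the escalating library, their summed level being 1914 against 14896 CPM. Slc1a2 alone made up 1421 and 13256 CPM of these sums, and the median log2 ratio of the 11 was -2.12. All 12 microglial markers were lower, at 34.9 against 1552 CPM in sum, with Trem2 at 0 in the escalating library. Of mature oligodendrocyte markers 8 of 11 were lower, of endothelial markers 7 of 8 and of mural markers 3 of 6. Of 8 oligodendrocyte precursor markers 1 was higher and 3 lower, and of 10 interneuron markers 2 were higher and 2 lower. Of 12 pan-neuronal markers 2 were higher and 0 lower, with a median log2 ratio of 0.32 and sums of 7824 and 6416 CPM. Markers of the Drd1 and Drd2 projection neurons, the main neurons of dorsal striatum, were all measured, 7 of 7 in each list, and 0 were called in either direction. Of 5 measured cortical excitatory markers 4 were higher and 1, Rorb, lower. Their summed levels were 103 and 186 CPM, and Rorb alone, at 46.8 and 162 CPM, set the direction of that sum. In bulk tissue, fewer cells of a type and less RNA per cell cannot be told apart. What part these markers have in the channel values below was not tested.

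With TMM scaling most channel subunits were within 1.5-fold between the libraries, as were most measured genes. Of the 38 members 30 had at least 50 counts, and these lay between log2 ratios of -0.84 and 0.77. There was 1 member called higher, the calcium channel beta subunit Cacnb2, and 3 called lower, the T-type pore Cacna1i and the gamma subunits Cacng2 and Cacng5. These counts are 3.33% and 10% of the measured members, beside the 9.36% and 17.1% of all measured genes given above. The remaining 26 measured members, 86.7%, were within 1.5-fold, beside 72.2% of all measured genes. The interquartile range of the members' log2 ratios was 0.46, and that of all measured genes 0.71. Among genes whose counts summed to 200 or more, 85.2% of 27 members and 78.2% of 8388 genes were within 1.5-fold. The members' median log2 ratio was -0.22, and that of all measured genes was 0.02.

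**Figure D1:**
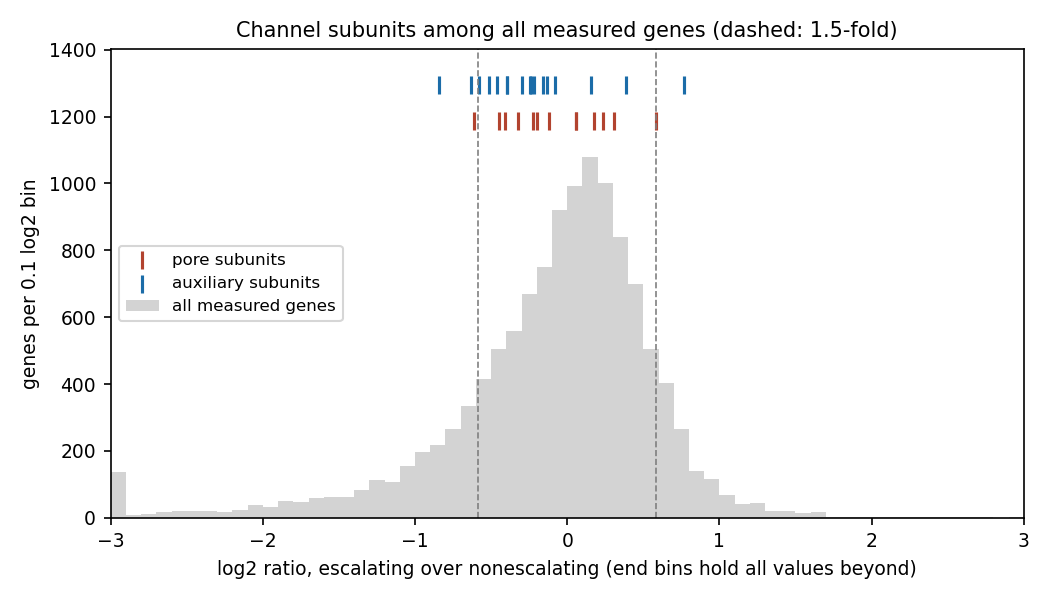
Distribution of log2 ratios (x axis, escalating over nonescalating, TMM-scaled) of the 12213 measured genes as genes per 0.1 log2 bin (grey bars, y axis), with each pore (red) and auxiliary (blue) subunit as a tick above. The 30 measured subunits lie between -0.84 and 0.77, while the grey bars reach far lower; dashed lines mark 1.5-fold.

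The sign of most of these small ratios depended on the scaling. Scaling to total assigned reads moved the median of all measured genes from 0.02 to 0.38, and scaling to the summed pan-neuronal markers moved it to -0.27. With total reads 5 members were called higher and 0 lower, Cacna1e, Cacnb1, Cacnb2 and Scn9a being among the 5, beside 31.5% and 9.4% of all measured genes. Across 4 scalings, 16 of the 30 members had ratios on both sides of 0. Across all 4 scalings 4 stayed above 0, among them Cacnb1, Cacnb2 and Scn9a, and 10 stayed below: Cacna1a, Cacna1h, Cacna1i, Cacna2d1, Cacna2d2, Cacng2, Cacng3, Cacng5, Cacng8 and Scn4b. With pan-neuronal scaling 0 of the 30 members were called higher and 11 lower, namely these 10 and Cacna1c. Of all measured genes 2.82% and 28.7% were called. The share of members called lower was then above that of all measured genes, unlike with TMM scaling. The pan-neuronal sum leans on Snap25, which was itself called higher with TMM scaling. Snap25 alone held 3740 of the 7824 CPM in that sum (escalating) and 2487 of the 6416 (nonescalating). Pan-neuronal scaling without Snap25 was not run. Ratios of channel genes to each other within a library do not depend on scaling, and they are given beside the scaled values below.

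Sodium channel pores were carried by a few genes typical of central neurons. The rule does not match Scn2a1, the older symbol under which the deposited counts list Scn2a, so this pore is given apart from the members. Scn2a1 was the most abundant sodium pore per transcript length, at 40.8 CPM per kilobase of its longest annotated transcript (escalating) and 51.6 (nonescalating). Next came Scn8a, the main pore of the axon initial segment and nodes of mature neurons, at 32.1 and 35.0 CPM per kilobase. Scn1a, which in forebrain is best known from inhibitory interneurons, was at 20.7 and 19.9, and Scn3a, a pore most prominent before birth, at 12.9 and 15.1. Scn9a, best known from peripheral sensory neurons, was far lower, at 1.35 and 1.09 CPM per kilobase. The order of these pores was the same in both libraries.

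None of the sodium pores was called with TMM scaling. Scn8a (chromosome 15, 100869858 to 101045938, build mm10) had 3978 counts (escalating) and 3308 (nonescalating), a log2 ratio of -0.12 (-0.19 to -0.05). Scn1a (chromosome 2, 66270778 to 66440840) had 1878 and 1380 counts, for a log2 ratio of 0.06 (-0.04 to 0.16). Scn3a had 1338 and 1194 counts, with a log2 ratio of -0.22 (-0.34 to -0.11). All 3 were thus within 1.5-fold of equal, bounds included. Scn2a1 had 3949 and 3817 counts, for a log2 ratio of -0.34 (-0.40 to -0.27). Scn9a had 144 and 89 counts, for a log2 ratio of 0.31 (-0.08 to 0.70), an interval that held 0 with TMM scaling. With total-read scaling its log2 ratio was 0.66 and it was called higher. Scn9a reads per read of the other sodium pores, Scn2a1 included, were 1.41 times as many in the escalating library (1.07 to 1.86). The balance among the pores shifted toward Scn1a. It took 16.5% of sodium pore reads (escalating, exact binomial interval 15.9 to 17.2) against 14.0% (nonescalating, 13.4 to 14.7), while the share of Scn2a1 was 34.8% (33.9 to 35.7) and 38.8% (37.8 to 39.8).

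Muscle and sensory neuron pores were at or near the detection floor. Scn4a, the skeletal muscle pore, had 0 and 1 counts. Scn10a and Scn11a, pores of pain-sensing neurons, had 1 and 3 counts and 2 and 4 counts. Scn7a, a sodium-sensing relative that is not opened by voltage in the usual way, had 3 and 8 counts. These 4 genes were not measured by the 50-count rule. Where no read was counted, up to 3 remain possible, equal to 0.277 CPM (escalating) or 0.363 CPM (nonescalating).

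Sodium channel beta subunits are single-pass membrane proteins with an immunoglobulin-like outer domain, and they act both as channel modulators and as adhesion molecules. Of this class, none was called with TMM scaling. Scn4b, long known as a striatum-enriched gene whose product shapes resurgent sodium current, had the highest level per length of all 38 members in both libraries, 78.7 CPM per kilobase in the escalating and 103 in the nonescalating. Scn2b followed at 75.7 and 79.9, and Scn3b at 40.1 and 44.8 CPM per kilobase. The order of these beta genes was the same in both libraries.

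Scn4b (chromosome 9, 45138395 to 45154152) had 4240 and 4266 counts, which after scaling was 392 and 516 CPM and a log2 ratio of -0.40 (-0.46 to -0.33). Scn2b, its neighbour on chromosome 9 (45117782 to 45130070), had 3815 and 3078 counts, for a log2 ratio of -0.08 (-0.15 to -0.01). These adjacent genes therefore differed in ratio although neither reached 1.5-fold. The number of Scn4b reads per Scn2b read was 1.11 (escalating) and 1.39 (nonescalating), 0.802 times as high (0.752 to 0.855). Scn3b had 1802 and 1539 counts (log2 ratio -0.16, interval -0.26 to -0.06). Beside these, the 7 Drd1 projection neuron markers had a median log2 ratio of -0.06, with extremes of -0.38 and 0.39, and the 7 Drd2 projection neuron markers one of -0.24, with extremes of -0.57 and 0.21.

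Calcium channel pores were dominated by Cacna1e, the pore of R-type channels, which resist most classical calcium channel blockers. Cacna1e stood at 62.9 CPM per kilobase (escalating) and 53.5 (nonescalating). The N-type pore Cacna1b (14.1 and 13.6), the L-type pore Cacna1c (11.7 and 14.6) and the P/Q-type pore Cacna1a (11.0 and 15.0) lay close together, and their order differed between the libraries. Below them came the T-type pores Cacna1i (7.29 and 11.2) and Cacna1h (6.80 and 9.03) and the L-type pore Cacna1d (5.88 and 5.21). The T-type pore Cacna1g was lowest of those measured, at 0.717 and 0.822 CPM per kilobase. The place of Cacna1i depends on the length used. With the union of all annotated exons it lay above Cacna1a and Cacna1c in the nonescalating library (11.1 against 10.4 and 9.10). The retinal pore Cacna1f had 5 and 2 counts, and the skeletal muscle pore Cacna1s, which the rule does not match, had 1 and 0.

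**Figure D2:**
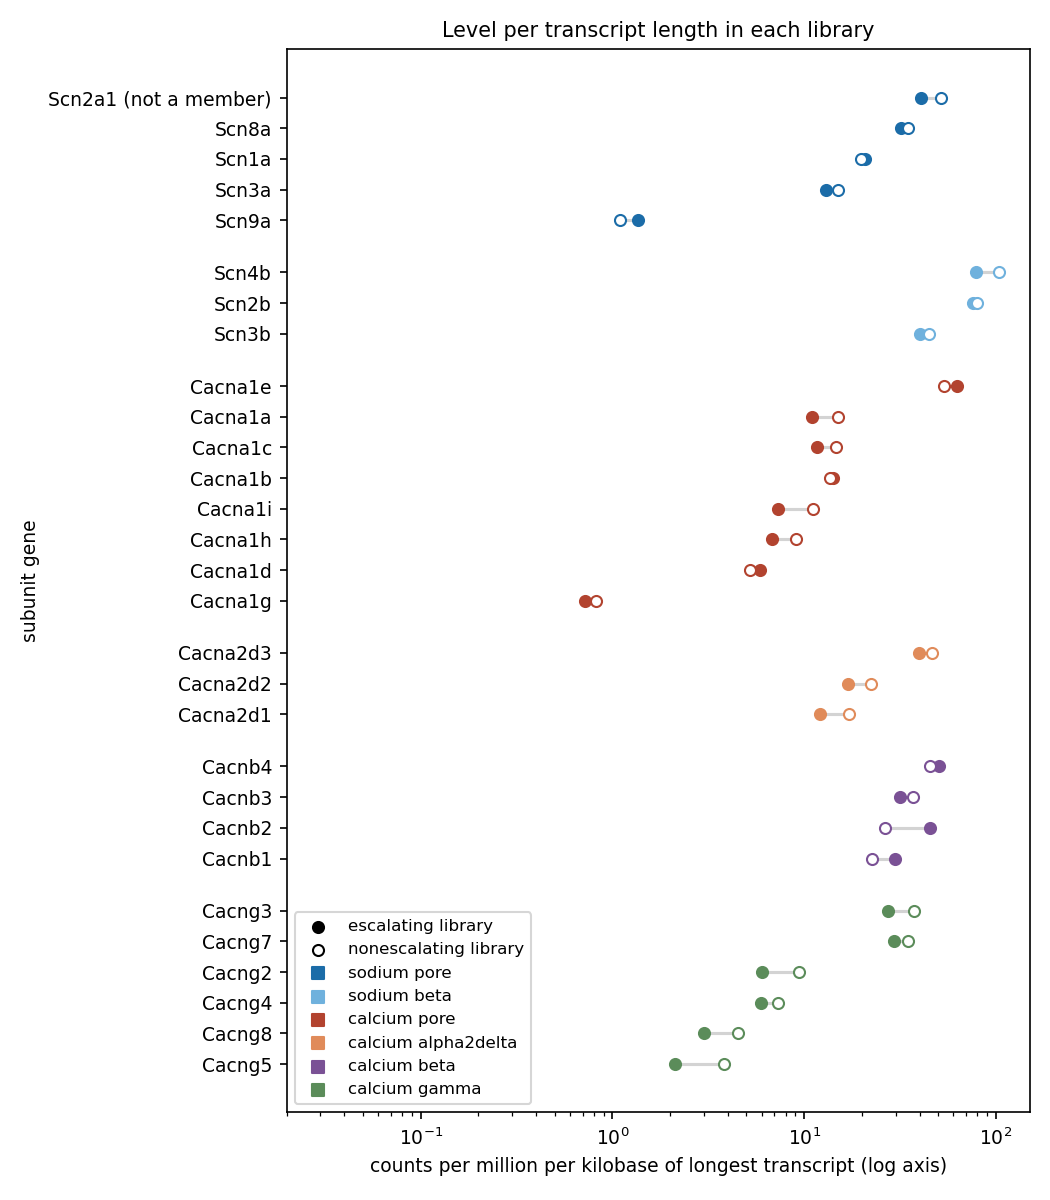
Level of the subunits described, in CPM per kilobase of its longest annotated transcript (x axis, log scale) in the escalating (filled) and nonescalating (open) library, grouped and coloured by class, with Scn2a1 shown as a gene outside the rule. Scn4b is the highest member in both libraries and Cacna1e the highest calcium pore, while Cacna1g and Scn9a are the lowest of those plotted.

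The 1 calcium pore called was Cacna1i (chromosome 15, 80287238 to 80398279), with 772 counts (escalating) and 904 (nonescalating). This was 1.53-fold lower (1.39 to 1.69), just past the threshold, and with total-read scaling it was not called (log2 ratio -0.25). The other T-type pores, which open near the resting potential and support burst firing, were not called: Cacna1h had 606 and 615 counts (log2 ratio -0.41, interval -0.57 to -0.24). Cacna1g had 65 and 57 counts (-0.20, interval -0.73 to 0.34).

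The pores known for roles in presynaptic calcium entry differed from each other in ratio. Cacna1a, which supplies P/Q-type channels to fast transmitter release (chromosome 8, 84388440 to 84640246), had 944 and 985 counts, for a log2 ratio of -0.45 (-0.58 to -0.32). Cacna1b had 1489 and 1092 counts, for a log2 ratio of 0.06 (-0.05 to 0.17). Cacna1e (chromosome 1, 154390731 to 154884501) had 10158 and 6610 counts, for a log2 ratio of 0.23 (0.19 to 0.28). Cacna1a was thus the lowest of these pores relative to its counterparts. There were 1.58 Cacna1b reads per Cacna1a read (escalating) and 1.11 (nonescalating), 1.42 times as many (1.26 to 1.60). There were 10.8 and 6.71 Cacna1e reads per Cacna1a read, 1.60 times as many (1.46 to 1.76).

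The L-type pores carry the calcium signal from the membrane to the nucleus and have been studied in cocaine-induced plasticity. Cacna1c had 1664 and 1595 counts, for a log2 ratio of -0.33 (-0.43 to -0.23). Cacna1d, whose channels open at more negative voltages, had 614 and 416 counts, for a log2 ratio of 0.17 (-0.01 to 0.36). Neither reached 1.5-fold. The number of Cacna1d reads per Cacna1c read was 0.369 (escalating) and 0.261 (nonescalating), 1.41 times as high (1.22 to 1.64). Part of the Cacna1d exons (4.7%) overlaps Chdh on the opposite strand, and the sources used here do not say whether counting used strand. Ratios were computed for 10 gene pairs, chosen after values were seen.

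Within the calcium pores, Cacna1e took 62.3% of reads (escalating, 61.5 to 63.0) against 53.8% (nonescalating, 53.0 to 54.7). The shares of Cacna1a (5.79% and 8.02%), Cacna1c (10.2% and 13.0%), Cacna1h (3.71% and 5.01%) and Cacna1i (4.73% and 7.36%) were correspondingly lower in the escalating library. Those of Cacna1b (9.13% and 8.90%) and Cacna1d (3.76% and 3.39%) had overlapping counting intervals. Since shares add up, a larger share for Cacna1e by itself lowers the others.

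**Figure D3:**
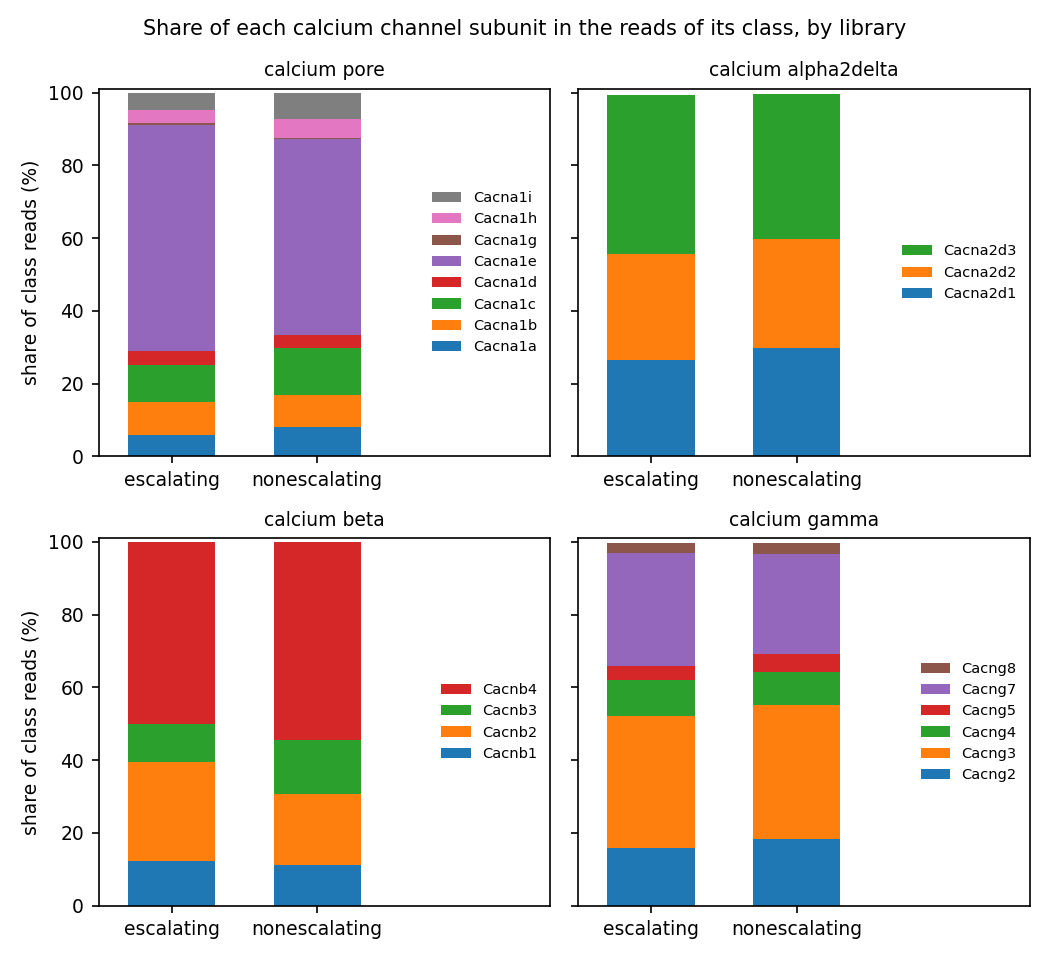
Share of each measured calcium channel subunit in the reads of its class (y axis, percent) in the escalating and nonescalating library, 1 panel per class. Cacna1e fills 62.3% and 53.8% of calcium pore reads and Cacnb2 27.4% and 19.5% of calcium beta reads.

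Calcium channel alpha2delta subunits are extracellular proteins anchored in the membrane that carry the pore to the surface, and those encoded by Cacna2d1 and Cacna2d2 bind the drug gabapentin. All 3 measured members had log2 ratios below 0, although that of Cacna2d3 was above 0 with total-read scaling, and none was called. Cacna2d1 had 969 and 1059 counts, 1.43-fold lower (1.31 to 1.56) and the nearest to the threshold. Cacna2d2 had 1063 and 1071 counts (log2 ratio -0.40, interval -0.52 to -0.27), and Cacna2d3 1595 and 1416 (-0.22, interval -0.32 to -0.11). Per length, Cacna2d3 was the highest of this class at 39.9 CPM per kilobase (escalating) and 46.3 (nonescalating). Cacna2d4 had 21 and 18 counts and was not measured. Calcium pore reads per alpha2delta read numbered 4.47 (escalating) and 3.44 (nonescalating), 1.30 times as many (1.23 to 1.37).

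Calcium channel beta subunits are cytoplasmic proteins that grip the intracellular loop of high-voltage-activated pores, protect them from degradation and tune their opening. This class held the only member called higher. Cacnb2 (chromosome 2, 14603088 to 14987908) had 2453 counts (escalating) and 1100 (nonescalating), or 227 and 133 CPM. It was 1.71-fold higher (1.59 to 1.83), and 95.3% of measured genes had a lower ratio. When the libraries were scaled to pan-neuronal markers instead, Cacnb2 was not called, and with total-read scaling it was (log2 ratio 1.13). Part of its exons (7.3%) overlaps annotated transcripts on the opposite strand. The same holds for 16% of the exons of Cacnb4 and 5.9% of those of Cacng2, and the deposited counts list none of these overlapping transcripts by its annotated symbol.

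The other beta subunits were not called. Cacnb1 had 1089 and 638 counts, a level 1.31-fold higher (1.18 to 1.44). Cacnb4, with 4474 and 3070 counts, had a log2 ratio of 0.16 (0.09 to 0.22). Cacnb3, with 932 and 839 counts, had a log2 ratio of -0.24 (-0.37 to -0.10). The makeup of the class therefore differed between the libraries. Cacnb2 took 27.4% of beta subunit reads (escalating, 26.5 to 28.4) against 19.5% (nonescalating, 18.5 to 20.5). Cacnb4 took 50% (49.0 to 51.0) and 54.4% (53.1 to 55.7), and Cacnb3 10.4% (9.79 to 11.1) and 14.9% (13.9 to 15.8). There were 0.548 and 0.358 Cacnb2 reads per Cacnb4 read, a ratio of 1.53 (1.40 to 1.67). Per length of the longest transcript, Cacnb4 was highest at 50.3 and 45.1 CPM per kilobase, and Cacnb2 lay above Cacnb3 in the escalating (45.1 against 31.5) and below it in the nonescalating library (26.4 against 37.1). With the union of all annotated exons as length, Cacnb2 was the lowest of the 4 in both libraries, so its place among the beta subunits depends on the length used.

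Genes named as calcium channel gamma subunits encode proteins with 4 membrane-spanning segments, which the brain uses mainly as transmembrane AMPA receptor regulatory proteins. Some of them, the product of Cacng2 included, bring AMPA-type glutamate receptors to the synapse and slow their closing. All 6 measured members had log2 ratios below 0, although those of Cacng4 and Cacng7 were above 0 with total-read scaling, and 2 were called lower. Cacng2, which encodes stargazin, the founding member of this group (chromosome 15, 77991748 to 78120028), had 359 and 426 counts, a level 1.55-fold lower (1.35 to 1.79). Cacng5 (chromosome 11, 107874605 to 107915055) had 85 and 117 counts, a level 1.80-fold lower (1.35 to 2.41). Neither was called with total-read scaling, where their log2 ratios were -0.27 and -0.48.

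The most abundant gamma genes per length were Cacng3, at 27.3 and 37.5 CPM per kilobase in the escalating and nonescalating libraries, and Cacng7, at 29.3 and 34.8. Cacng3 had 819 and 862 counts, for a log2 ratio of -0.46 (-0.60 to -0.32), and Cacng7 702 and 636 counts, for a log2 ratio of -0.24 (-0.40 to -0.09). Cacng8 had 62 and 71 counts, for a log2 ratio of -0.58 (-1.10 to -0.07), just inside the threshold. Cacng4 had 225 and 211 counts, for a log2 ratio of -0.29 (-0.57 to -0.02). Cacng1, the true calcium channel subunit of skeletal muscle, had 9 counts in each library, and Cacng6 had 0 in both, below the floor of 3 counts.

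**Figure D4:**
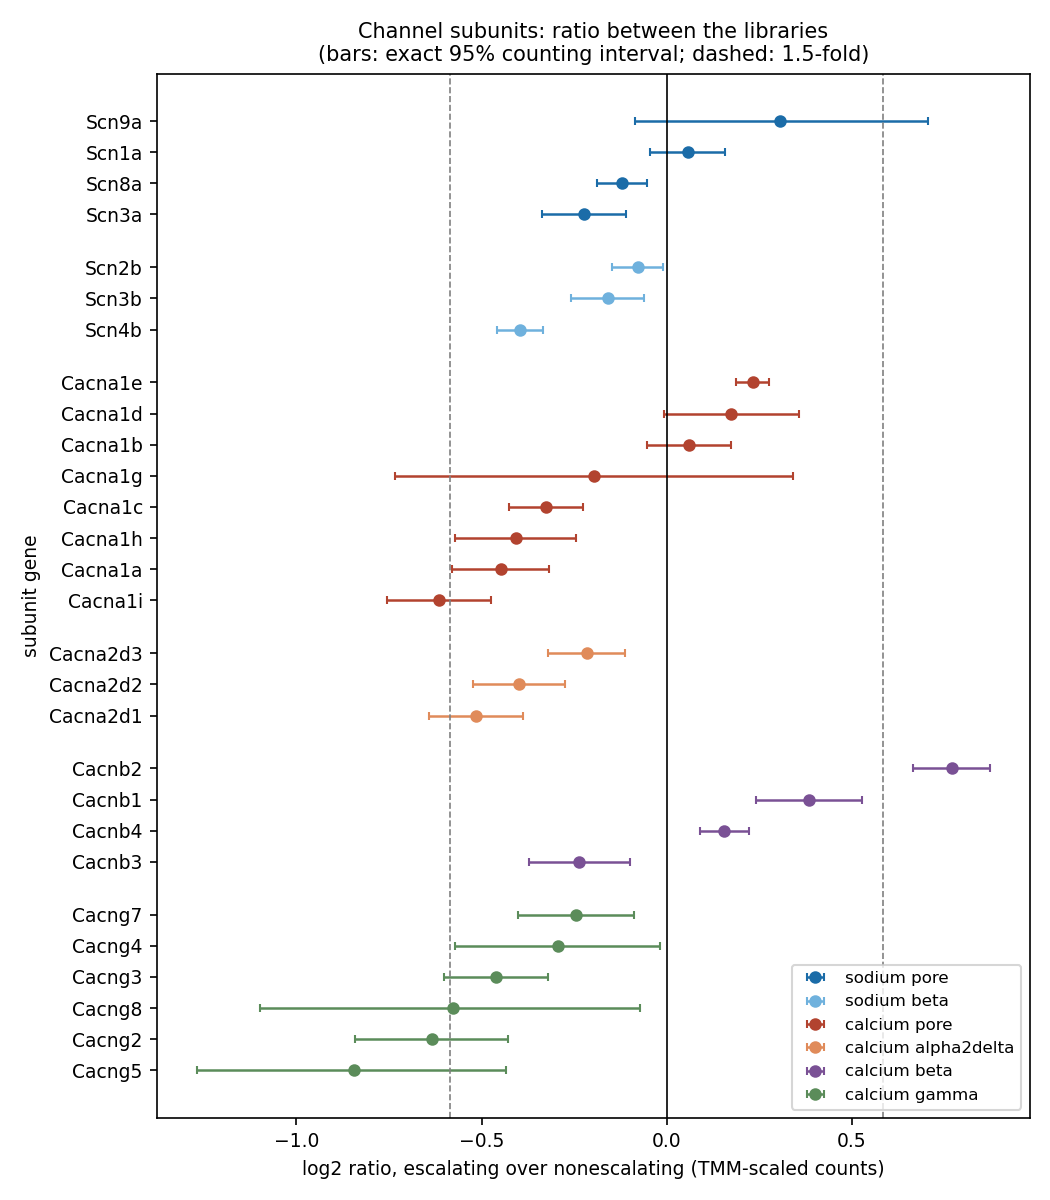
Log2 ratio of escalating over nonescalating (x axis, TMM-scaled counts) for the subunits described, by class, with exact 95% counting intervals as bars and 1.5-fold as dashed lines. Cacnb2 lies to the right of the upper line, and Cacna1i, Cacng2 and Cacng5 to the left of the lower.

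Set against each other by role, pore and auxiliary subunits did not part clearly. Of 13 measured pores 0 were called higher and 1 lower, and of 17 measured auxiliary subunits 1 higher and 2 lower. The median log2 ratio was -0.12 for pores and -0.24 for auxiliary subunits, with 6 of 13 pores and 3 of 17 auxiliary subunits above 0 (10 and 10 with total reads). Summed over all members, pore reads numbered 23720 and 18293 and auxiliary reads 25123 and 20769. This gave 0.944 pore reads per auxiliary read (escalating) and 0.881 (nonescalating), 1.07 times as many (1.04 to 1.10). The direction rested on Cacna1e, the most abundant pore: without it the value was 0.960 (0.930 to 0.990), and without both it and Scn4b, the most abundant auxiliary gene, 0.917 (0.888 to 0.947). With Scn2a1 added to the pores it was 1.03, with an interval that excluded 1.

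Within sodium channels, pore reads per beta subunit read were 1.11 times as many in the escalating library (1.06 to 1.16). With Scn2a1 added this was 1.04 (0.998 to 1.08). Within calcium channels, pore reads per auxiliary read were 1.03 times as many (0.998 to 1.07). Ratios of single calcium classes lay further from 1. Reads of calcium beta subunits per gamma subunit read numbered 3.96 (escalating) and 2.42 (nonescalating), 1.63 times as many (1.53 to 1.75). Beta and gamma subunits have the highest and lowest class medians below, and their ratio was not among those planned. Calcium pore reads per beta subunit read numbered 1.82 and 2.17, 0.839 times as many (0.805 to 0.874), and per gamma subunit read 7.22 and 5.26, 1.37 times as many (1.29 to 1.46). The auxiliary subunits of calcium channels thus did not move as 1 group relative to the pores. Median log2 ratios were 0.27 for calcium beta, 0.06 for sodium pore, -0.15 for sodium beta, -0.26 for calcium pore, -0.40 for alpha2delta and -0.52 for gamma subunits. With total-read scaling they were 0.63, 0.42, 0.21, 0.10, -0.04 and -0.16, with alpha2delta and gamma subunits still below 0. With pan-neuronal scaling all 6 were below 0, from -0.02 for calcium beta to -0.80 for gamma subunits, so the signs of the calcium beta and sodium pore medians turned. Sodium channel reads per calcium channel read numbered 0.567 and 0.640, 0.886 times as many (0.862 to 0.910).

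Genes whose products anchor, traffic or regulate these channels were taken from a list of 36, of which 31 were measured. Of these 4 were called higher and 4 lower, 12.9% in each direction, beside 9.36% and 17.1% of all measured genes. Their median log2 ratio was 0.02, as was that of all measured genes. Among sodium channel partners 0 of 16 were higher and 3 lower. Ank3, which encodes ankyrin-G, the scaffold that holds sodium channels at the axon initial segment, had 11988 and 17080 counts, a level 1.86-fold lower (1.82 to 1.91). Nrcam, a cell adhesion molecule bound by ankyrin at the same sites, had 1940 and 2624 counts, a level 1.77-fold lower (1.67 to 1.88). The remaining one was Ank2, the related ankyrin-B gene, at 1.70-fold lower (1.65 to 1.76). Set against the channels within each library, Ank3 reads per sodium pore read (Scn2a1 included) numbered 1.06 (escalating) and 1.74 (nonescalating), 0.608 times as many (0.587 to 0.630), a ratio chosen after the values were seen.

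Among calcium channel partners 4 of 15 measured were higher and 1 lower. Shank3, a postsynaptic scaffold that binds L-type channels, had 1709 and 2827 counts, a level 2.16-fold lower (2.04 to 2.30). Cabp1, a calmodulin-like protein that slows the inactivation of L-type channels, had 261 and 103 counts, a level 1.94-fold higher (1.54 to 2.46). The others called higher were Snap25, which is also in the pan-neuronal list, Erc2 at 1.64-fold (1.54 to 1.75), an active zone scaffold gene, and Akap5 at 1.56-fold (9541 and 4690 counts), which tethers protein kinase A to L-type channels. With total-read scaling 10 of the 31 partners were called higher and 1, Shank3, lower, beside 31.5% and 9.4% of all measured genes. With pan-neuronal scaling 1, Cabp1, was higher and 9 lower, beside 2.82% and 28.7%. The 10 higher and the 9 lower lie near those shares over all genes. Ank2, Snap25, Erc2 and Akap5 are named beyond the 4 with the largest ratios, after their values were seen.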

How the data were processed

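Total RNA was prepared from homogenised dorsal striatum, and each of the 2 groups had 1 library. The authors deposited unnormalised read counts for each gene symbol, made with STAR 2.0.0e and HTSeq on mouse build mm10, per the submitters' processing notes. The sources used here do not give the annotation or strand setting. Reads given to no gene stayed out of library sizes.

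TMM factors (1.13 escalating, 0.882 nonescalating) came from edgeR 4.0.16 in R 4.3.3. Log2 ratios used a pseudocount of 0.5 on scaled counts; folds are CPM ratios without it. Intervals of ratios between 2 genes or classes are exact conditional intervals of the odds ratio. The call rule and the intervals were tested on simulated counts that held counting error only. Replicate spread and scaling error were absent from them, so that check does not bear on either. Alternatives were DESeq2 1.42.0 size factors, total reads and pan-neuronal scaling, other filters, pseudocount, thresholds and lengths. With 1 library in each group no test between the groups was run. GENCODE M21, on the build of mm10, gave coordinates, the longest transcript, exon unions and overlaps, with Scn2a1 matched to Scn2a. Python 3.11.15 with scipy 1.17.1 did the rest.

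All members enter the counts and sums, and those with at least 50 counts are named with both counts, apart from some that are not reported here; of the partner genes called, the 4 with the largest ratios are named. The members and lists were chosen with earlier results of these data known.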

Additional observations from a re-analysis of the deposited data

How the results depend on the processing

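Scaling decided most of what changed. Called higher were 5 subunits with total reads and 0 with pan-neuronal scaling, and called lower 0 and 11, against 1 and 3 with TMM. At a 2-fold threshold 0 were called in either direction. The share of all measured genes called at 2-fold is not given here, so this count shows nothing particular to the subunits. The pore median was 0.24 with total reads and -0.41 with pan-neuronal scaling. The auxiliary median was 0.12 with total reads and -0.53 with pan-neuronal scaling. The change in pore reads per auxiliary read was 0.917 without Cacna1e and Scn4b. In settings chosen after seeing the data it was 0.960 without Cacna1e alone and 1.03 with Scn2a1 added. Counts of calls were the same with DESeq2 size factors, filters of 10 or 200 counts, a pseudocount of 5 and a stricter demand on the interval. All 30 log2 ratios kept their sign with DESeq2 size factors and with a pseudocount of 5; 11 changed sign with total reads and 5 with pan-neuronal scaling. No paired analysis was possible because each group has 1 library, and for the same reason no replicate could be left out. Depth limits Cacna1g and Cacng8, with 122 and 133 counts in sum, and the 8 members below 50.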
